A study of Mus musculus with 4 samples.

Results

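The members described here are 574 dense runs of C-to-U editing sites in RNA of young mouse cortex. A run was a chain of at least 4 listed sites on one strand in which each site lay at most 10 bases from the next and every site count was under 100. The runs held 2722 of the 28412 sites in the list, or 9.58%, under 379 of its 4206 gene symbols. The runs were chosen by site position and site count, so their size, spacing and counts are given as a description. The data came from scDART-seq, which reads m6A in single cells through APOBEC1, a deaminase of cytidine, joined to a YTH domain that binds m6A. The 4 samples were sublibraries of a single cell pool, with replicates 1 and 2 mixed in each. The pool joined cortical cells carrying APOBEC1-YTH with cells carrying APOBEC1-YTHmut, the version with a mutated YTH domain. Every mouse had received tamoxifen at 20 mg/kg at 24 h intervals for 5 days, beginning at 6 to 8 weeks of age, and cortex was collected 7 days after the last dose. The promoter or Cre line behind the fusion was not given in the sources used here, and the sorted neuronal nuclei named in the series text were not analysed here. Samples, genotypes and cell types are not named in the list. No run can therefore be assigned to either fusion, no replicate error exists, and no test was made.

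N6-methyladenosine (m6A) is placed on adenosines by a nuclear methyltransferase complex, mostly where a purine precedes the A and a C follows it. Reader proteins with a YTH domain bind the modified base and affect the stability, translation and localization of the transcript. In messenger RNA the mark is known to gather near stop codons and in 3' UTRs, and in brain it is abundant on transcripts of neurons and glia. The fusion edits cytosines close to the methylated adenosine, so a site lies beside the mark rather than on it. Below, a consensus-context cytosine is the last base of AAC or GAC, as read on the strand of the transcript. All remaining cytosines are called other-context cytosines.

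The sequences below show how tightly the sites packed. Shown are runs with the most sites in 3' UTRs, coding sequence (CDS) and noncoding exons among runs of at most 30 bases, and 5 stretches of longer or equally spaced 3' UTR runs chosen after their values were seen. Each is written 5′ to 3′ in the sense of the transcript, as read from GENCODE M21 transcripts in mm10 coordinates, with listed cytosines in capitals. A lower-case c is a cytosine that was not listed. The 3' UTR runs came from Kif1b, a kinesin motor, Sgtb, a co-chaperone, and Rgs5, a G protein signalling regulator of pericytes.
Kif1b, chr4:149178006-149178035, minus strand: aCaaaCaaaCaaaCaaaCaaaCaaaaaaCC
Sgtb, chr13:104141313-104141342, plus strand: aaCcCgaCccaaaCaaCaaCaaaaCagaCa
Rgs5, chr1:169693539-169693559, plus strand: aaCCaaCaaCaaCaaCaaaCc
The longer 3' UTR runs came from Kcnma1, the pore subunit of a calcium-activated potassium channel, Rbfox1, a neuronal splicing regulator, Syt1, the calcium sensor of synaptic vesicles, Tenm4, a teneurin, and Dab1, an adaptor of the reelin pathway. The stretches shown hold 11 of 16, 6 of 10, 7 of 9, 6 of 9 and 7 of 9 sites of these runs.
Kcnma1, chr14:23298715-23298743, minus strand: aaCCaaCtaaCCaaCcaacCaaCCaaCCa
Rbfox1, chr16:7409829-7409856, plus strand: aaCaaaCaaaCaaataaaCaaaCaaaCg
Syt1, chr10:108500023-108500052, minus strand: aaCcaaCatCttaaaggaCaaCttaaaCCt
Tenm4, chr7:96906664-96906693, plus strand: taCttaaCaaaaaaCaaaCaaaaaaaCaCa
Dab1, chr4:104741740-104741769, plus strand: aaCaaaaaaCaaaCaaaaCaaaaCaCaaCa
The CDS runs came from Glul, which encodes glutamine synthetase, Gria3, an AMPA receptor subunit, Sparcl1, a secreted matricellular protein, and Olfm1, a secreted glycoprotein.
Glul, chr1:153907970-153907994, plus strand: caCgaaaCctcCaaCatCaaCgaCt
Gria3, chrX:41402863-41402881, plus strand: taCaaCacCaaCCagaaCa
Sparcl1, chr5:104093109-104093127, minus strand: aaCCaaCgCgcaaaCatCa
Olfm1, chr2:28229558-28229587, plus strand: aCcaaCgcctCgaCctacgagtaCattgaC
The noncoding runs came from the nuclear long noncoding RNA Malat1, from a noncoding exon annotated under Daam2, which encodes a formin, and from the imprinted long noncoding RNA Meg3.
Malat1, chr19:5796116-5796145, minus strand: aCtttttCaggtggaCataaCagaCttggC
Daam2, chr17:49476203-49476220, minus strand: gaCaCagaCaCagaCaCa
Meg3, chr12:109559816-109559841, plus strand: gaCaCataggaaaCtgtaaCaagaCa

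Most runs were short. The 574 runs held 4 to 16 sites, and 343 of them held exactly 4, 118 held 5 and 68 held 6. They spanned 6 to 54 bases with a median of 19, and 523 spanned at most 30 bases. They were spread over both strands, with 296 on the plus and 278 on the minus strand, and chromosome 2 held the most, 66. Of the 2148 neighbouring pairs of sites inside runs, 50.6% lay 3 to 5 bases apart. A spacing of 4 bases was the most frequent, with 410 pairs, ahead of 3 bases with 387 and 5 bases with 290. The 1340 pairs of successive consensus-context sites were never closer than 3 bases, which the 3 letters of the context impose, and 229 of them lay 4 bases apart. On the other side of the rule's size threshold, 823 runs of 3 sites had a median span of 11 bases and a median summed count of 24, against 16 bases and 35 for the 343 runs of 4. On the other side of its count threshold, 22 runs had a highest count of 100 to 120, beside 21 runs of this set with a highest count of 80 to 99. In all, 112 runs of 4 or more sites, holding 581 sites, were left out for a count of 100 or more.

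**Figure D1:**
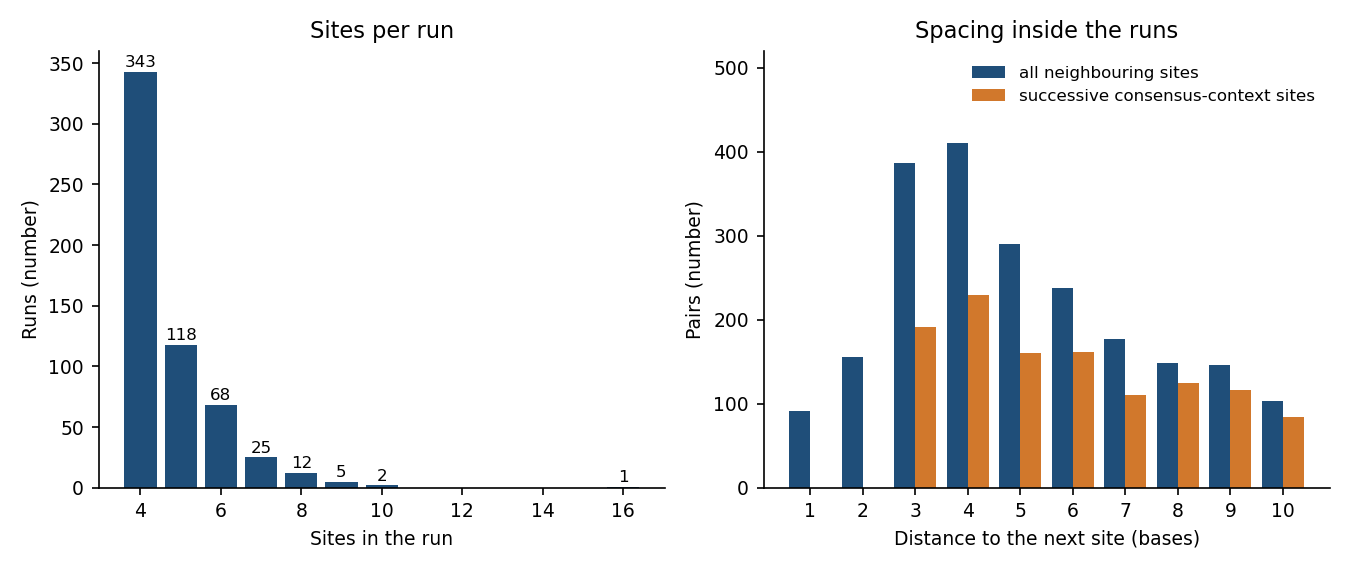
Number of runs by sites per run (left) and number of site pairs by distance in bases (right), for all neighbouring sites and for successive sites in AAC or GAC. The size falls from 343 runs of 4 sites to a single run of 16, and distances of 3 and 4 bases are the most frequent.

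Inside the runs the listed sites were mainly, but not only, in the consensus context. Of the 2713 member sites with a sequence, 1912 followed A with A or G before it, a share of 70.5% (95% Wilson interval 68.7 to 72.2, counting error only, as for all intervals below). The share was 86.2% for sites with no neighbour within 10 bases, 67.5% for pairs, 73.0% for runs of 3 and 77.8% over the whole list. Runs therefore held more other-context sites than lone sites did. Among all exonic cytosines of the genes with a run, 11.5% had the consensus context. All 801 other-context sites in the runs had a count of 3, the lowest in the list, and the filters on sites were not given in the sources used here. A count of 3 at other-context sites was not particular to the runs. Of the 11663 sites of the list with a count of 3, 5328 were in the consensus context. The remainder were in the other context or had no sequence context. Nearly all of the 6296 other-context sites of the list were therefore at 3 as well. Consensus-context sites in the runs had a median count of 10, against 8 in runs of 3, 7 in pairs, 5 for lone sites and 6 over the list. The rule keeps these counts under 100, and in the runs left out for a higher count the median was 109.5. A count of 3 was carried by 9.31% of consensus-context sites in the runs. The share was 12.7% in runs of 3, 16.7% in pairs, 32.6% for lone sites and 24.2% in the list.

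The context of the runs was rich in A. Of the consensus-context sites, 69.6% (67.5 to 71.6) were AAC, against 62.5% over the list and 52.7% of all consensus-context cytosines in exons of the same genes. AAC with a further A before it made up 33.8% of them, against 27.2% and 18.1%. Read with the base before and the base after it, AAACA was the commonest context, with 440 sites or 23.0%, against 13.9% of the list and 7.50% of cytosines. CAACA followed with 210 sites or 10.98%, against 5.44% and 4.76%. GGAC, the form often given as the strongest m6A context, held 5.44% (4.51 to 6.55) in the runs, 6.93% in the list and 13.1% of cytosines. A G directly after the cytosine was found at 8.37% of sites in the runs, 15.3% in the list and 9.09% of cytosines. In runs of 3 sites, 65.7% of consensus-context sites were AAC, 30.3% were AAC with a further A before it, and 9.22% had a G after the cytosine. In the runs left out for a count of 100 or more, these shares were 61.1%, 26.1% and 7.67%. The fuller DRACH consensus excludes a C in front of AAC or GAC and a G behind it, and it covered 69.5% (67.4 to 71.5) of consensus-context sites in the runs. This lay close to the 71.0% of the list and under the 76.1% of cytosines. AAC and GAC sites had the same median count in the runs, 10. In the 295 runs with both kinds, the median of the AAC sites was the higher in 138, that of the GAC sites in 151, and they were equal in 6.

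Nearly every consensus-context cytosine inside a run was listed. Counting only cytosines between the first and last site of a run, 1122 of 1164 in AAC or GAC were sites, or 96.4% (95.2 to 97.3). Of the other-context cytosines between the ends, 448 of 1170 were listed, or 38.3% (35.6 to 41.1). The rule bears on these shares, because an unlisted stretch of more than 10 bases ends a run. Over all exons of the genes with a run, 10.2% of consensus-context and 0.484% of other-context cytosines were listed.

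Listed sites stayed frequent beyond the runs. At 11 to 50 bases from the ends, outside the stretch the rule looks at, 960 of 1582 consensus-context cytosines were listed, or 60.7% (58.3 to 63.1). Around lone sites this share was 30.1% (29.6 to 30.5), around pairs 47.6% and around runs of 3 sites 53.0%. It was 58.9% (55.7 to 62.1) around runs of 4 and 63.1% (59.4 to 66.7) around longer runs, so these last intervals overlap. Of other-context cytosines at this distance 4.59% were listed near the runs and 1.76% near lone sites. Sites of the same transcript share its read depth, which is unknown here, and its part in these shares was not tested. In all, 86 runs lay within 50 bases of another run, so some listed cytosines at this distance were sites of a neighbouring run. In Pde1a, which encodes a calmodulin-dependent phosphodiesterase, runs of 7 and 4 sites in the 3' UTR had only 12 bases between them, with summed counts of 252 and 249.

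**Figure D2:**
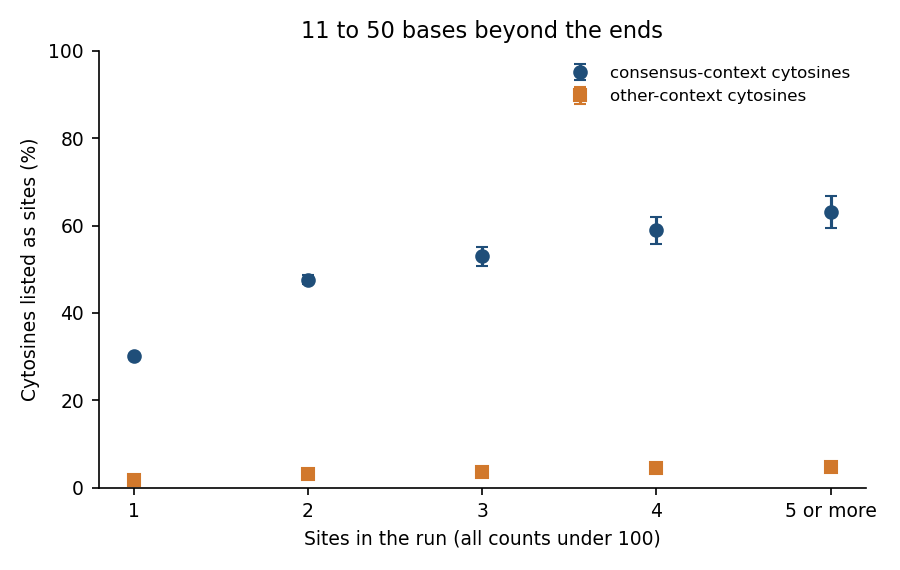
Percent of consensus-context (AAC or GAC) and other-context cytosines that are listed as sites, by sites in the run, at 11 to 50 bases from the ends of the run, where bars are 95% Wilson intervals for counting error. The consensus-context share goes from 30.1% around lone sites to 63.1% around runs of 5 or more.

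Other-context sites were listed on both sides of the consensus-context ones. They lay at every distance up to 10 bases after them and from 3 to 10 bases before them. Nearer on the 5′ side none is possible, because the 2 bases before a consensus-context cytosine are A or G. The Kcnma1 sequence shows doubled cytosines, in which the second of the pair is the other-context one, and the Daam2 run a repeat in which the cytosine of GAC and the cytosine 2 bases after it are both listed. Over all runs, 56.2% (50.3 to 61.9) of the 276 other-context cytosines located 2 bases after the nearest listed consensus-context site were themselves listed. At 1 base after it, 35.5% (29.9 to 41.5) of 259 were listed, and at 3 bases after it 38.6% of 158. On the 5′ side, 54.9% of 162 were listed at 3 bases and 55.5% of 137 at 4 bases. The shares were larger farther away, at 63.5% (55.9 to 70.4) of 167 at 5 to 10 bases after the site and 65.0% (58.9 to 70.7) of 246 at 5 to 10 bases before it. The base before the cytosine separated them further. Other-context cytosines were listed in 71.1% (66.3 to 75.5) of cases after T and 69.3% (64.3 to 73.9) after A. The share was 52.1% (45.8 to 58.5) after G and 30.3% (26.7 to 34.2) after C. These shares count the end sites, which are listed by definition. A cytosine beyond the outermost consensus-context site lies in a run only if it, or one farther out, is listed. The rule therefore raises the shares at larger distances, and at 10 bases all 9 on each side were listed. Over all distances the share was 52.6% with the end sites and 38.3% between them. The shares by distance and by base are given only with the end sites.

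The bases around the runs formed A-rich and partly repeated sequence. A window of 30 bases centred on each run could be read for 571 runs. A made up 43.7% of its bases, C 26.6%, G 14.1% and T 15.7%. A held 41.0% in windows on runs of 3, 36.5% on lone sites and 26.8% over all 30-base windows of the longest transcripts of genes with a run. The order held when each listed cytosine, and for consensus-context sites the 2 bases before it, were left out, with 40.3% A for the runs, 38.3% for runs of 3 and 34.8% for lone sites. The motif AACAAC was in 91 windows, or 15.9%, against 11.2% of windows on runs of 3, 2.87% on lone sites and 0.768% of all windows. AAACAAAC was in 58 windows, or 10.2%, against 5.27%, 1.25% and 0.214%. AAAACAAAAC was in 26 windows, or 4.55%, against 3.92%, 1.06% and 0.0915%. Each motif holds AAC at fixed steps, so the choice of runs favours it, and the motifs can overlap in a window. On the opposite strand none of the 3 motifs was found in the 571 windows, which allows a share of up to 0.525%. Over all windows the opposite-strand shares were 0.609%, 0.189% and 0.107%. The choice of windows rich in A and C also disfavours motifs made of T and G. The absence is therefore no control for strand.

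A set of 41 runs, or 7.14% of all runs, held the same spacing between successive consensus-context sites at least 3 times in a row. Other-context sites in between were passed over. Only the 212 runs with 4 or more consensus-context sites could hold such a series. The spacing was 4 bases in 18 runs, 3 bases in 13, 5 bases in 9 and 8 bases in 1. Of the 41 runs 34 lay in 3' UTRs, 4 in noncoding exons and 3 in CDS. The Kif1b sequence shows a step of 4 bases and the Rgs5 sequence a step of 3. The Meg3 run of 9 sites and the Rbfox1 run of 10 sites also held steps of 4, and the Dab1 run steps of 5. The CDS runs of equal spacing were in Nrd1, a metalloprotease, and Pcdh7, a protocadherin, with steps of 3 bases, and in Brinp1 with steps of 8.

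Stretches dense in the consensus context were counted with and without sites. In genes of the list, 7203 exonic stretches held at least 4 consensus-context cytosines at most 10 bases apart. Of these, 82.4% held no listed site and 229, or 3.18%, overlapped a run. The overlap was 6.69% (5.80 to 7.71) of 2645 stretches in 3' UTRs, 1.44% (1.04 to 1.98) of 2508 in CDS and 0.798% of 1755 in noncoding exons. It reached 11.9% (9.22 to 15.3) of the 445 stretches in 3' UTRs up to 400 nt after the stop codon, and was 6.61% (5.50 to 7.91) of the 1635 farther away. Among genes with a run, which were chosen for holding one, 56.2% of 1004 stretches held no site and 22.8% overlapped a run. In their 3' UTRs 35.6% of 458 held no site and 38.7% overlapped a run, and up to 400 nt after the stop codon these shares were 21.2% and 53.5% of 99. In turn 229 of the 574 runs overlapped such a stretch, and runs with fewer than 4 consensus-context sites reached the rule's minimum through other-context ones. By number of consensus-context sites, 212 runs held 4 or more, 227 held 3 and 131 held 2. A further 2 runs held 1, and 2 had no exonic sequence to read. Only 84 runs consisted of consensus-context sites alone.

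Runs lay mainly in 3' UTRs. The 3' UTR held 405 of 574 runs, or 70.6% (66.7 to 74.1), CDS 112 or 19.5% (16.5 to 23.0), noncoding exons 50 or 8.71%, and the 5' UTR 5. The 3' UTR share was 57.6% (56.8 to 58.4) for lone sites, 65.2% for pairs, 68.8% for runs of 3 and 73.6% (67.6 to 78.9) for runs of 5 or more. The CDS share went the other way, from 30.5% (29.7 to 31.2) for lone sites to 17.8% (13.4 to 23.2) for runs of 5 or more. Of the consensus-context cytosines in exons of genes with a run, 39.8% lay in 3' UTRs and 31.9% in CDS. Runs that touched more than 1 region numbered 6. Along the longest coding transcript, which carried 508 runs, 35.0% (31.0 to 39.3) of run midpoints and 26.9% (26.1 to 27.7) of lone sites were at most 400 nt from the stop codon. Here and below, the midpoint of a run is the median position of its sites. The first 200 nt after the stop codon held 15.8% of runs and 10.3% of lone sites. More than 400 nt before it lay 18.5% of runs and 33.0% of lone sites. Because transcripts of a gene differ, a run placed in a 3' UTR can lie before the stop codon of the longest transcript.

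**Figure D3:**
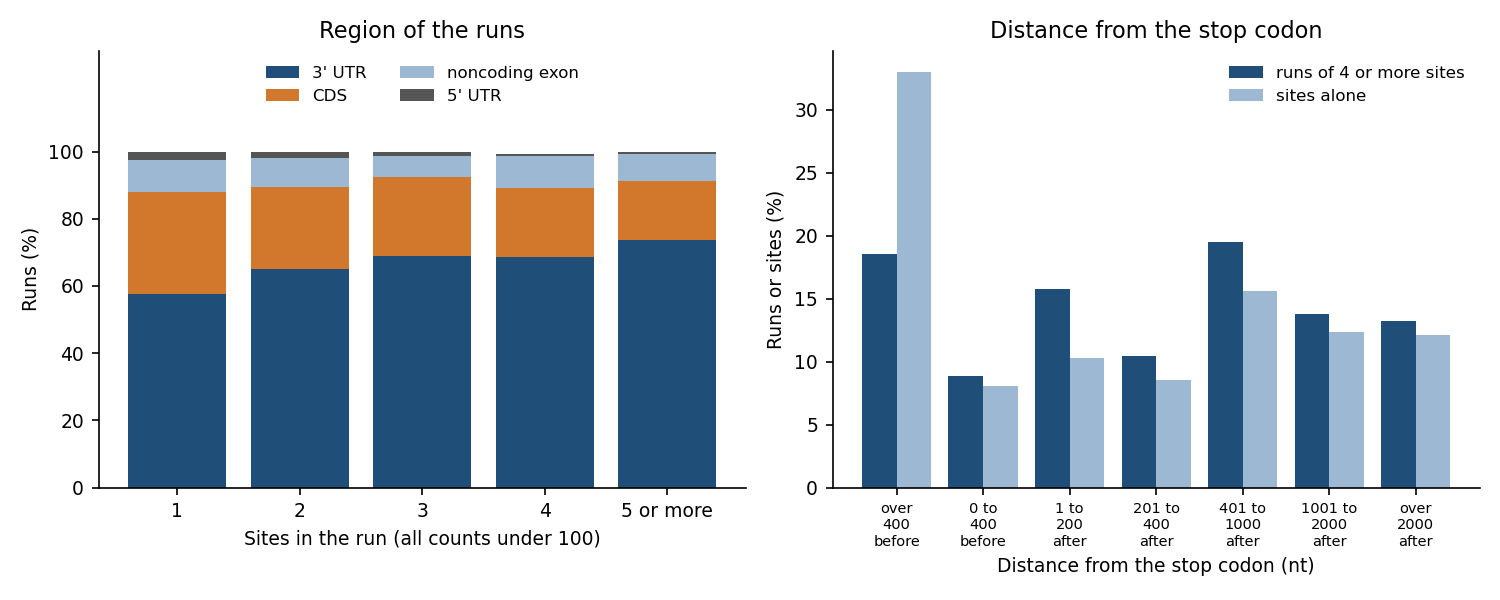
Percent of runs in each annotated region by sites in the run (left), and percent of runs of 4 or more sites and of lone sites by distance from the stop codon in nt (right). The 3' UTR part goes from 57.6% for lone sites to 73.6% for runs of 5 or more, and the bin over 400 nt before the stop codon holds 18.5% of runs and 33.0% of lone sites.

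Consensus-context sites of the 112 CDS runs fell mostly on the last base of a codon. Of their 332 consensus-context sites in CDS, 55.1% (49.7 to 60.4) fell on codon position 3, 25.0% on position 2 and 19.9% on position 1. For consensus-context cytosines of the same genes the shares were 52.6%, 25.8% and 21.7%, all inside the intervals of the runs. For consensus-context sites of the whole list they were 48.6%, 24.3% and 27.2%, outside the intervals of the runs at positions 3 and 1 (15.9 to 24.5 at position 1). The other-context sites in CDS runs fell on position 3 in 39.0% of 177 cases. In 30-base windows on CDS runs AACAAC was present in 17.9%, while AAACAAAC and AAAACAAAAC were in none of the 112.

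Site counts along the runs were uneven, as the largest runs show. The run with the most sites was in the 3' UTR of Kcnma1, chr14:23298709-23298749 on the minus strand. Along it the counts were 9, 3, 26, 3, 9, 3, 13, 11, 3, 7, 3, 4, 3, 3, 3 and 3 from 5′ to 3′. Its counts peaked early at 26, all 7 other-context sites were at 3, and 2 of its 11 consensus-context cytosines were not listed. In Rbfox1, chr16:7409823-7409870, the counts were 5, 21, 13, 26, 21, 21, 22, 15, 5 and 3. The middle sites of this run were near one another and the outer ones were the lowest. Its midpoint lay 36 nt after the stop codon.

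In other long runs the place of the highest site differed. The Syt1 run, chr10:108500015-108500050, had counts of 12, 35, 3, 44, 65, 32, 3, 92 and 3. The Tenm4 run, chr7:96906656-96906706, had 16, 3, 77, 38, 36, 21, 3, 37 and 29. Its highest site was the 77 near the 5′ end, whereas that of Syt1 lay near the 3′ end. The Dab1 run, chr4:104741737-104741771, had 3, 15, 15, 37, 47, 20, 3, 29 and 8. In the CDS of Zbtb18, a zinc finger transcriptional repressor, the run chr1:177447261-177447314 had 3, 5, 8, 5, 3, 9, 3, 54 and 71. Both high sites of this run stood at its 3′ end, and its span of 54 bases was the largest of all runs. The Meg3 run, chr12:109545617-109545652, had 3, 5, 9, 15, 17, 50, 31, 13 and 3, with a peak inside the run.

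**Figure D4:**
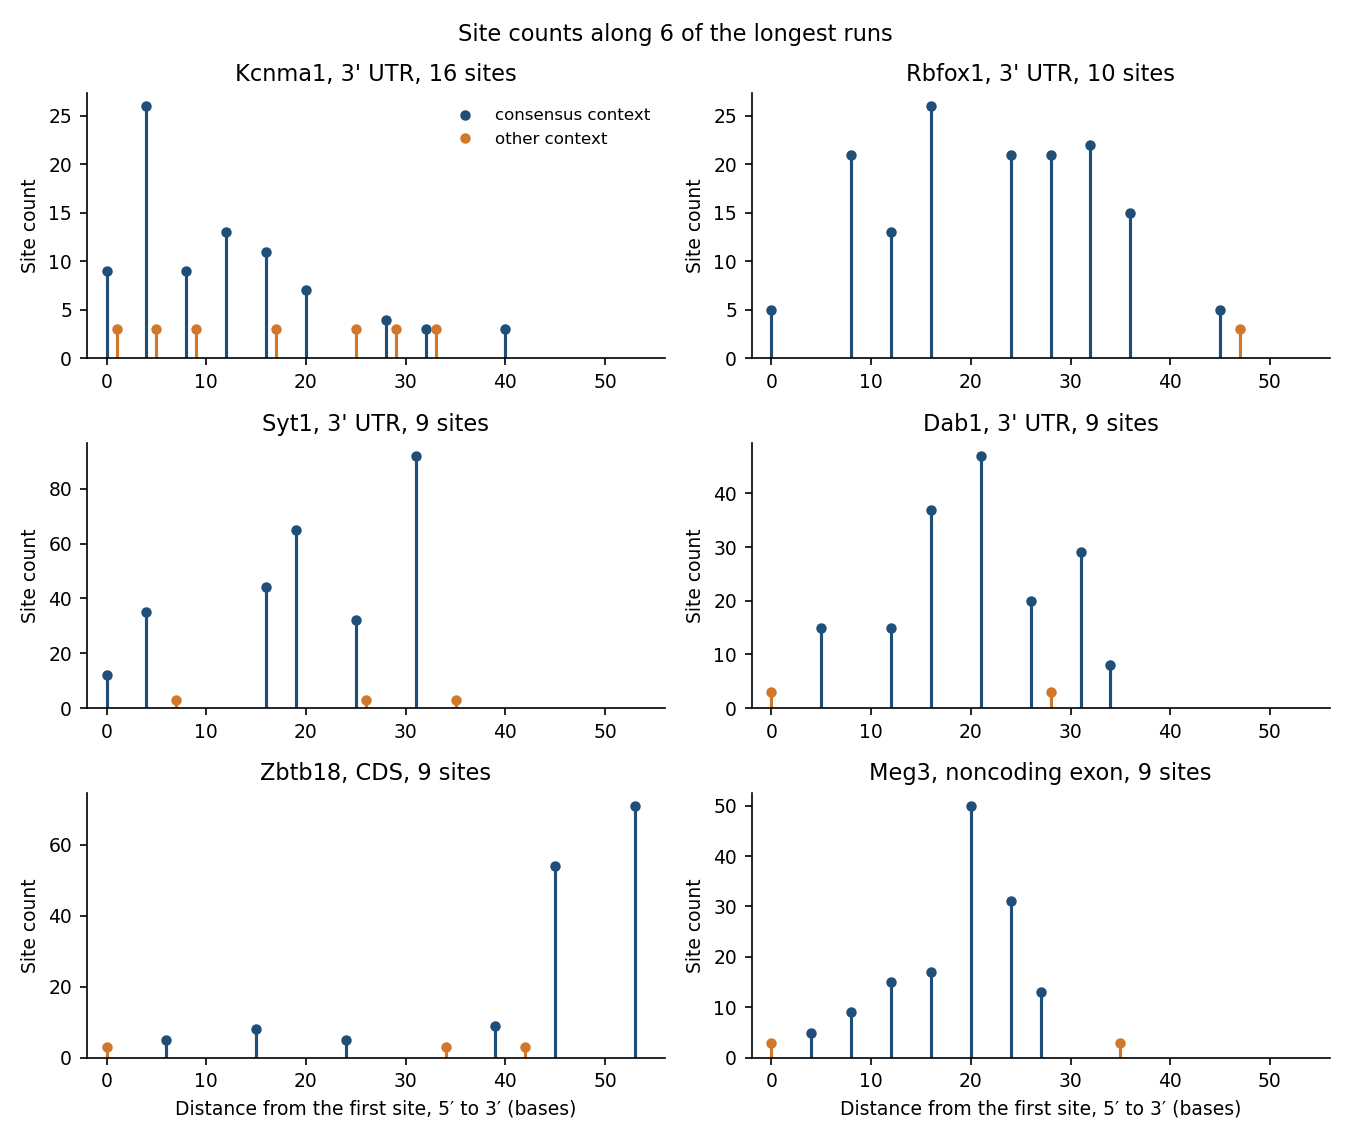
Site count (unnormalized, y axis differs by panel) against distance in bases from the first site, 5′ to 3′, along 6 of the runs with the most sites, with consensus-context (AAC or GAC) and other-context sites coloured apart. Other-context sites sit at 3 in every panel, as they do in all runs, while consensus-context sites reach 26 in Kcnma1 and 92 in Syt1.

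The 10 runs with the highest summed counts were all in 3' UTRs. The Rgs5 run, chr1:169693541-169693558, led with a summed count of 454, from sites of 48, 3, 99, 84, 83, 91 and 46. Its 6 consensus-context sites were all high, and its top site was just under the rule's limit. Grm5, which encodes a metabotropic glutamate receptor, followed with 320, from sites of 3, 51, 50, 89, 60, 40 and 27. Syt1 had 289 and Tenm4 260. The Camk2b run, in the gene of a calcium/calmodulin-dependent kinase subunit, reached 212, from 64, 3, 51, 47, 44 and 3. Ctsb, a lysosomal protease, reached 211, from 3, 33, 3, 65, 33, 3, 68 and 3. Ntrk3, the receptor of a neurotrophin, reached 197 with only 4 sites, of 90, 90, 14 and 3. In Bsg, the gene of the cell-surface protein basigin, 8 sites alternated as 3, 32, 3, 66, 3, 28, 3 and 53. Those at 3 were all in the other context and the rest in the consensus context. Over all runs the summed count ranged from 12 to 454 with a median of 43.

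Successive consensus-context sites differed in count within runs about as much as ones 1 to 10 bases apart outside the runs. Some pairs in the runs lay more than 10 bases apart, joined through other-context sites between them. In the 439 runs with at least 3 consensus-context sites, the highest count was a median of 3.17 times the lowest. It was less than 2 times the lowest in 75 runs and at least 10 times in 20. Successive consensus-context sites in a run differed by a median factor of 1.67, and 63.7% of these pairs were within a factor of 2. For pairs 1 to 10 bases apart that were not in these runs the factor was also 1.67, with 64.1% within a factor of 2. It was larger at 11 to 50 bases, 1.82 with 58.5%, and at 51 to 200 bases, 1.92 with 56.2%. For successive consensus-context sites of a gene that were over 200 bases apart it was 1.67 again, with 62.4%. The rule keeps counts in the runs under 100, a limit that it does not set for the other pairs. The highest consensus-context site was the first in 31.3% of 536 runs without a tie and the last in 31.2%, near the 33.4% expected if each site of a run were highest equally often.

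Most genes with a run had a single one. Of the 379 genes, 268 held 1 run, 73 held 2 and 38 held 3 or more, and these 38 held 160 runs. The share of genes with a run was 9.01% of all genes in the list and 23.5% of the 1610 genes with at least 4 sites, the fewest a run can have. It rose with the number of sites in the gene, from 6.10% of genes with 4 to 9 sites to 27.1% at 10 to 19, 59.9% at 20 to 49 and 85.3% at 50 or more. Genes with a run had a median of 22 sites, against 7 for the 1231 genes with 4 or more sites and no run. Exon length did not separate them, with medians of 7031 and 7136 bases. In genes with a run a median of 26.7% of the sites lay in runs.

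Meg3 held the most runs. Its 15 runs, all in noncoding exons, contained 76 of its 356 sites, or 21.4%. Slc1a2 and Slc1a3, the astrocytic glutamate transporters, had 10 runs and 5 runs, of which 9 and 4 lay in 3' UTRs. The 3' UTR runs of Slc1a2 were spread from 532 to 6172 nt after the stop codon. Map1b, a microtubule-associated protein, had 9 runs, 8 of them in the 3' UTR, and Snhg11, a small nucleolar RNA host gene with an annotated coding transcript, had 7. Rbfox1 had 5 runs, all in the 3' UTR, and they contained 29 of its 38 sites, or 76.3%. Syt1 also had 5, of which 1 lay in the 5' UTR with 7 sites and a summed count of 167. In Daam2, 16 of 22 sites, or 72.7%, lay in 3 noncoding runs, and at least 50% of sites lay in runs in 75 genes in all.

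Of the 18 genes with at least 4 runs, the others had exactly 4. These lay only in CDS for Pclo, an active zone scaffold, Kif1a, an axonal kinesin, and Sparcl1. The exons of Pclo measured 22457 bases and those of Sparcl1 only 2937. Calm2, which encodes calmodulin, had 3 of its 4 runs in CDS and exons of just 1467 bases. One of these CDS runs had its midpoint 51 nt before the stop codon and a summed count of 166. Glul and Zbtb18 each had 2 CDS and 2 3' UTR runs. The runs of Glul held 44.7% of its sites, and the midpoints of 2 neighbouring runs lay 29 nt before and 1.5 nt after the stop codon. Atp2b1, a plasma membrane calcium pump, had 3 runs in the 3' UTR and 1 in CDS. All 4 runs of Celf4, an RNA-binding protein, and of Rgs7bp, a binding partner of a G protein signalling regulator, lay in 3' UTRs. Xist, the noncoding RNA of X inactivation, had 4 noncoding runs.

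**Figure D5:**
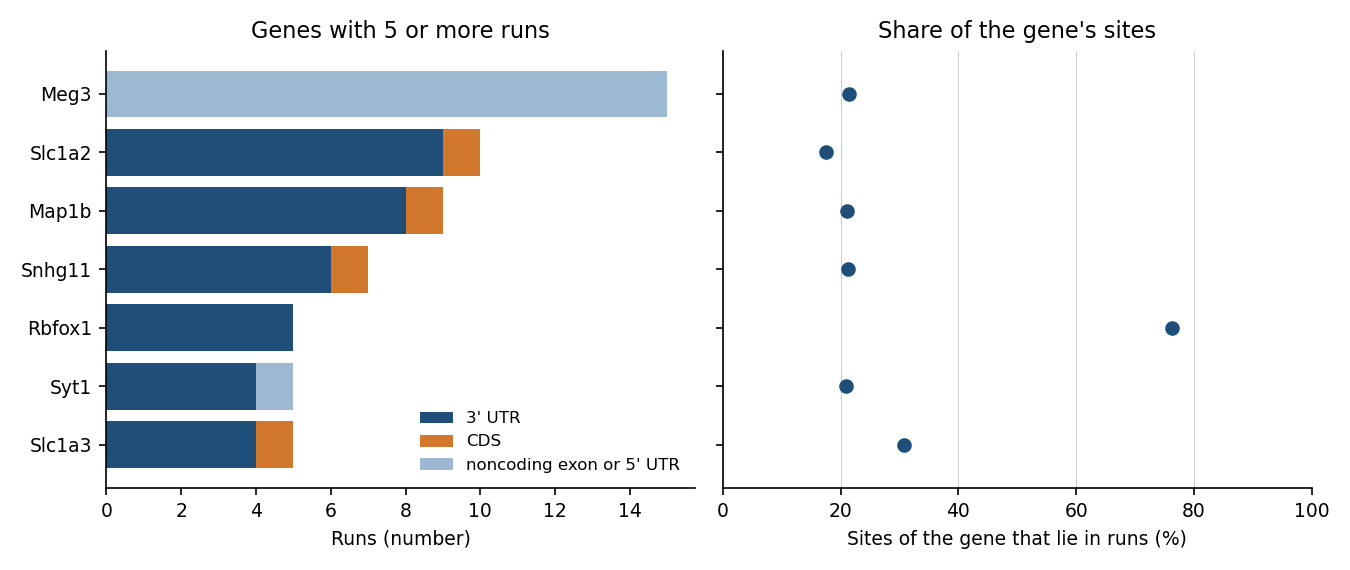
Number of runs by annotated region in the 7 genes with 5 or more runs (left) and percent of each gene's sites that lie in runs (right). Meg3 has 15 runs, and Rbfox1 has the highest share of sites in runs of these genes, 76.3%.

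Runs occurred in marker genes of several brain cell types, although the list does not name the cells that the transcripts came from. Gene lists are described by how many members held a run out of those with at least 4 sites, to be read against the 23.5% of all such genes. A gene with many sites is more likely to hold a run, and lists differ in sites per gene. Astrocyte markers held runs in 8 of 16, with 28 runs led by Slc1a2, Slc1a3 and Glul. Excitatory neuron markers held them in 4 of 12, among them 3 runs in Camk2a, a synaptic kinase, 2 in Slc17a7, the vesicular glutamate transporter, and 1 in the transcription factor Neurod2. Inhibitory neuron markers held a run in 1 of 4, Lamp5, where 5 of 7 sites lay in one 3' UTR run. Oligodendrocyte markers held runs in 3 of 7, with 1 each in Mal, a myelin membrane protein, Qk, an RNA-binding protein of myelination, and Enpp2, the enzyme autotaxin. Precursor markers held them in 0 of 2. Among microglia markers, 3 of 16 had any site, and the only one with at least 4 sites, Sparc, held 1 run. Endothelial and mural markers held runs in 6 of 12, including 2 each in Rgs5, in Flt1, a receptor of vascular growth factors, and in Sptbn1, a spectrin.

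Presynaptic genes had runs in 11 of 18, or 61.1%, near the 59.9% of all genes with 20 to 49 sites, with 23 runs including those of Syt1 and Pclo. These runs held 14.8% of the sites of the presynaptic genes, against 9.58% over all genes. In all genes with 20 to 49 sites the share was 14.55%, and in those with 50 or more it was 13.33%. Postsynaptic genes had them in 9 of 19, with 15 runs that held 10.1% of their sites, among them 3 in the NMDA receptor subunit Grin2b and 2 in Gria3. Channel and pump genes had them in 9 of 18, led by Atp2b1, by Kcnma1, whose single run held 48.5% of its sites, and by the sodium channel gene Scn8a, with 3 runs. Calmodulin and calcium signalling genes had them in 7 of 15, including Calm2 and the calcineurin subunit gene Ppp3cb, where 40.0% of sites lay in runs. Cytoskeleton and transport genes had them in 7 of 15, with 20 runs in Map1b, Kif1a, the kinesin gene Kif5c and others. Long noncoding RNAs had them in 6 of 9, with 33 runs, most in Meg3, Snhg11 and Xist.

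Immediate early genes, which are induced by neuronal activity, had 1 run each in 4 of 10, among them Jun, Egr3 and Arc, and these runs held 15.2% of their sites. The Jun run held 7 of the gene's 15 sites and its midpoint lay 63 nt after the stop codon. Neurodegeneration genes had runs in 3 of 11: the prion gene Prnp had 2, and App and Aplp1, which encode the amyloid precursor protein and a relative, had 1 each. Ribosomal protein genes had none, with 1 member at 4 or more sites. Of the m6A machinery, 1 of 6 genes held a run. This was Ythdf2, a YTH-domain reader that promotes decay of m6A-marked RNA. It had 2 CDS runs, of 5 and 4 sites, whose midpoints lay 176 and 207.5 nt before the stop codon and whose summed counts were 61 and 46. Together they held 40.9% of the sites of Ythdf2.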

How the data were processed

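The authors deposited 1 site list with the position, strand, gene symbol and an unnormalized whole-number count of every site. Per the submitters' processing notes, STAR 2.7.5 and build mm10 were used, and per the series text Bullseye called the sites. What the count counts, site filters and read depth were not given in the sources used here, so intervals cover counting error only. The list has no sample columns; replicate spread could not be measured and no test was run.

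Runs were found with Python 3.11.15 and pandas 2.3.3, and the run finder was tested on simulated data. Sites were placed on GENCODE M21, 1-based, with 3' UTR ranked before CDS, then 5' UTR, noncoding exons and introns. Of the 2722 member sites, 2640 matched by symbol, 63 by an older symbol from the RefSeq table, 15 by position and 4 not. All 2714 exonic ones were on C, and 9 sites had no full context. Intervals are Wilson (scipy 1.17.1).

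The members and the gene lists, 17 lists with 300 symbols, were chosen with earlier results of these data known. Named genes were those of the 10 runs with the most sites and the 10 with the highest summed count, the 10 genes with the most runs, and up to 3 members per list with the most sites in runs. Sequences were up to 4 runs per region with the most sites, at most 1 per gene, except that CT010467.1 is left out because its annotated gene lies on the other strand. A gene that these rules name is not reported here. Other named genes were chosen after their values were seen. Alternatives changed the joining distance, run size, count limits, region order and stop window.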

Additional observations from a re-analysis of the deposited data

How the results depend on the processing

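The list gives no depth per site, so a cytosine outside the list may be unedited or unread. No paired analysis was possible because samples are not told apart in the list. Of the values recomputed under the alternatives, 54 stayed near the main value and 27 moved, and the causes were not tested. Closeness was judged differently for counts and shares. Numbers of runs and genes were called near within a factor of 1.5. The shares called moved lay outside the interval of the main value, which can be a change of a few percent. The 574 runs became 193 at a joining distance of 5 bases, 1092 at 20, 231 at a minimum of 5 sites, 1397 at a minimum of 3, and 131 with sites of a count of 4 or more only. The 379 genes became 166, 599, 193, 729 and 122. The share in AAC or GAC, 70.5%, was 72.6% at 5 bases, 100% at counts of 4 or more, 72.4% with 1 run per gene, and 68.5% without the 41 runs of equal spacing, an alternative chosen after seeing the data. The 100% follows from leaving out the count of 3, at which the other-context sites of the runs lay. The DRACH share, 69.5%, was 60.9% at 5 bases and 73.4% at 20. The 3' UTR share, 70.6%, was 83.2% at counts of 4 or more, 74.9% with 1 run per gene and 65.9% with CDS placed first. The 35.0% within 400 nt of the stop codon was 22.6% within 200 nt. Counting end sites, 97.9% of AAC or GAC cytosines in runs were listed, 99.7% at 5 bases, 94.2% at 20 and 99.7% at counts of 4 or more. Of other-context cytosines 52.6% were listed, and this was 74.1%, 32.8% and 34.4% in the same order and 49.9% at a minimum of 5 sites.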

Other observations

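Runs with a count of 100 or more were led by Malat1, with 14, and the ribosomal RNA gene symbol CT010467.1, with 9, and noncoding exons held 29.5% of these 112 runs. Both kinds of run were found under 42 gene symbols. At 11 to 50 bases from the ends of the runs with a high count, 93.4% of AAC or GAC cytosines were listed, counted for each run end in reach.

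Among the runs with lower counts, 3 lie under CT010467.1, on the strand opposite to its annotated gene. They held 5, 4 and 4 sites with summed counts of 84, 130 and 64. Sites on the opposite strand lay inside only 2 runs, in Atp1b1, a sodium pump subunit gene, with 2 such sites, and in Cacnb4, a calcium channel subunit gene, with 1.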
